A study of Canis lupus familiaris with 20 samples.

Results

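ATP-binding cassette (ABC) drug transporters were followed in canine mammary cancer cells and canine macrophages that had been grown alone or together. The 4 genes listed were ABCC5, ABCB1, ABCC1 and ABCG2, and all probes whose RefSeq accession was paired with one of these symbols were taken. This gave 3 of 1045 genes with a symbol and 6 of the 43603 distinct probes of the array, 3 for ABCC5, 2 for ABCB1 and 1 for ABCC1. No probe was matched to ABCG2, which is not analysed here. The 20 two-colour arrays formed 10 dye-swap pairs, 5 per cell population, and in each pair a co-culture was compared with a mono-culture of the same cells.

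The cancer cells were the canine mammary lines CMT-U27 (a simple carcinoma), CMT-U309 (a spindle-cell tumour), P114 (an anaplastic cancer), and CMT-W1 and CMT-W2 (both adenocarcinomas). The macrophages had been grown from CD64-positive blood monocytes of healthy dogs. Monocytes were layered on cancer cells stained with the dye CMTMR, and after 72 h stained cells were sorted as cancer cells and unstained cells as macrophages. The authors reported a high purity after sorting. By their microscopy the macrophages held no stained cells and the cancer cells no unstained ones. They also reported staining for macrophage antigens in co-cultured cancer cells. Each line is represented by 1 co-culture, so the 5 replicates of a population are 5 different pairings. How many macrophage mono-cultures were grown is not given in the sources used here. The 5 macrophage comparisons may therefore share a control, and the p-values may leave out part of its spread. This also holds for tests of mono-culture levels, where the 5 macrophage values may come from the same culture.

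ABC transporters use the energy of ATP to move substrates across membranes, and several of them pump drugs out of cells. ABCB1 encodes P-glycoprotein, the classical multidrug efflux pump with hydrophobic drugs as substrates. ABCC1 encodes MRP1, which exports glutathione conjugates and other organic anions, and ABCC5 encodes MRP5, an exporter of cyclic nucleotides and nucleotide analogues. Macrophages are known to carry several of these pumps as well.

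The sorted populations have to be described first, because cell type markers also changed on co-culture. In mono-culture, 9670 of 27374 probes differed in level between macrophages and cancer cells (limma, adjusted p under 0.05), which was 20.6% higher and 14.7% lower in the macrophages. In co-culture, 1 of 27735 probes differed (0.00361%), and 796 had an unadjusted p under 0.05. The macrophage markers, 8 of the 16 listed genes with a probe, had a summed normalised signal of 680000 to 919000 in mono-cultured macrophages and of 56900 to 258000 in co-cultured macrophages. For cancer cells this sum was 1060 to 23900 in mono-culture and 16900 to 513000 in co-culture, with CMT-U27 highest in both. Within a co-culture it was higher in sorted cancer cells than in sorted macrophages for CMT-U27 (513000 against 132000) and CMT-W2 (86700 against 56900). With CMT-U309, P114 and CMT-W1 it was higher in the macrophages. All 8 markers fell in the co-cultured macrophages, among them FCGR1A, which encodes CD64 (-3.97 ± 1.46, SD, n = 5, adjusted p = 0.00103), and CD163 (-5.45 ± 2.85, SD, n = 5, adjusted p = 0.00322). In the co-cultured cancer cells all 7 that could be tested rose, FCGR1A by 5.47 ± 0.85 (SD, n = 5, adjusted p = 4.76e-04 in limma) on the log2 scale. The median log2 ratio of the list was -3.82 in the macrophages and 4.98 in the cancer cells.

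Stromal and spindle cell markers, 7 of 12 with a probe, summed to 6330 to 9150 in mono-cultured macrophages and to 9700 to 103000 in co-cultured ones. The highest sums were those with CMT-U309 (103000) and P114 (75800), and the same lines had the highest sums among mono-cultured cancer cells, 79500 and 91900. The membrane coat gene CAV1 (5.83 ± 0.72, SD, n = 5), the collagen chaperone gene SERPINH1 (5.49 ± 0.82) and CAV2 (3.99 ± 2.49) rose in the macrophages, with adjusted p of 7.67e-05, 9.17e-05 and 0.00671 (limma), as 3 of 6 tested. COL1A2 (0.60 ± 1.39), COL1A1 (0.37 ± 1.50) and PDGFRB (0.07 ± 0.40, SD, n = 5 for each) were not called there (adjusted p = 0.341, 0.589 and 0.837, limma). Among cancer cells 0 of 6 stromal markers tested rose and 2 fell, CAV1 (-1.34 ± 0.87) and PDGFRB (-1.25 ± 0.83, SD, n = 5 for both, adjusted p = 0.0454 and 0.0493, limma). Of all probes tested, 20.9% were called higher and 25.9% lower in the macrophages, and 6.28% and 5.84% in the cancer cells. DES was not well above background on any macrophage array. Of the epithelial and mammary markers 3 of 19 had a probe, ERBB2, MUC1 and CLDN3, and their sum ranged from 5010 to 6710 in mono-cultured macrophages and from 2340 to 8040 in co-cultured ones. ERBB2 fell in the macrophages (-0.74 ± 0.52, SD, n = 5, adjusted p = 0.0490, limma) and CLDN3 in the cancer cells (-1.65 ± 0.96, SD, n = 4, adjusted p = 0.0448, limma), each as 1 of 3 tested. Of 4 lymphocyte markers with a probe, 0 rose and 2 fell in the macrophages, CD4 (-1.26 ± 0.96) and CD8A (-0.64 ± 0.31, SD, n = 5 for both, adjusted p = 0.0254 and 0.0470, limma), and 1 of 3 tested, CD28, rose in the cancer cells (2.31 ± 1.71, SD, n = 5, adjusted p = 0.0444). In bulk RNA a change in the share of a cell type and a change in RNA per cell cannot be told apart, and the part of these markers' changes in the transporter values was not tested.

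**Figure D1:**
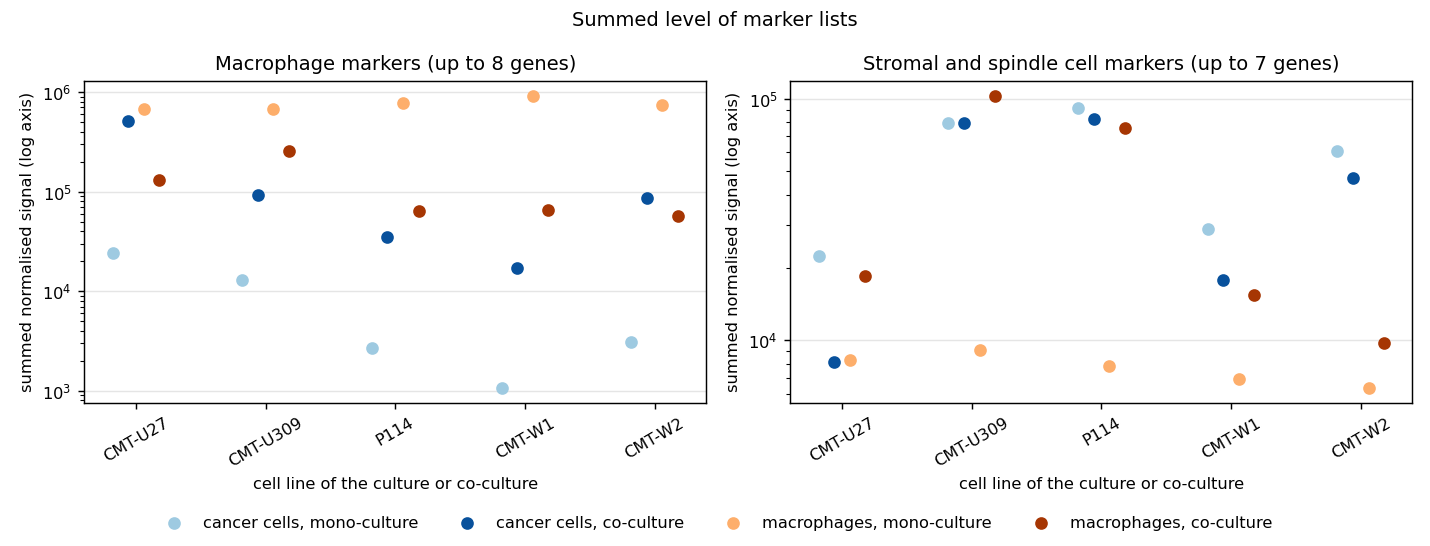
Summed normalised signal (log axis) of the macrophage markers (left) and of the stromal and spindle cell markers (right), for each cell line, in the 4 kinds of culture. Each point is the sum over marker genes of the mean of both dyes, and in the CMT-U309 cancer cells 1 gene of each list is left out because its spots carried an outlier mark. Co-cultured cancer cells (dark blue) reach 513000 for the macrophage markers with CMT-U27, and co-cultured macrophages (dark orange) lie at 56900 to 258000, below all mono-cultured macrophages.

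ABCC5 rose in the macrophages in all 5 pairings. Its brightest probe (A_11_P050966, printed in 5 spots per array) was not well above background on any of the 10 arrays in mono-cultured macrophages, at a normalised log2 level of 4.60 ± 0.78 (SD, n = 5). In co-culture it was well above background on 10 of 10 arrays, at 10.37 ± 1.41 (SD, n = 5). On processed signals the increase was therefore at least 24.8-fold, taking the lowest signal well above background on each array as the limit for the mono-culture. This limit holds for that background correction alone. With normexp and loess the mean increase was 4.26-fold.

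By pairing, the ABCC5 level of co-cultured macrophages was 8.71 with CMT-U27, 10.63 with CMT-U309, 12.52 with P114, 10.33 with CMT-W1 and 9.64 with CMT-W2. The mono-culture values of the same pairs ranged from 3.64 to 5.56 and were not well above background. The macrophages grown with P114 were highest and those grown with CMT-U27 lowest. With the same limit on processed signals the increase was at least 9.0-fold with CMT-U27, 13.5-fold with CMT-W2 and 20.5-fold with CMT-W1. It was at least 39.3-fold with CMT-U309 and 96.5-fold with P114. With normexp and loess the log2 ratios of the pairings ran from 1.01 to 3.45. The measured log2 ratio was 5.77 ± 0.83 (SD, n = 5, higher in 5 of 5, adjusted p = 8.57e-05, limma over 30090 probes). The probe passed the filter through its co-culture signal alone and so had to differ, and this ratio and its p rest on mono-culture signals not well above background. With both cultures required to be well above background it could not be tested. With normexp background correction and loess in place of the scanner's own ratio it was 2.09 ± 0.94 (SD, n = 5), and over 18 other alternatives, none with that requirement, the adjusted p ran from 8.17e-06 to 0.00790. The 5 spots of this probe on one macrophage array differed in log2 ratio by an SD of 0.16 to 1.04 (median 0.48).

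The other ABCC5 probes were dimmer and pointed the same way. The second probe (A_11_P051621) was not well above background on any array of mono-cultured macrophages and was so on 9 of 10 in co-culture, with a mean log2 level of 3.55 against 8.40. With the same limit on processed signals its increase was at least 6.55-fold, but with normexp and loess it was 2.21-fold. This probe too passed the filter through the co-culture alone and could not be tested with both cultures required. It had measured log2 ratios of 2.68 (CMT-U27), 3.60 (CMT-W1), 4.0 (CMT-W2), 6.34 (CMT-U309) and 7.61 (P114) and an adjusted p of 0.00153 (limma, n = 5). With normexp and loess the mean was 1.15 and the adjusted p 0.0507, and it was 2.48e-04 to 0.0507 over 17 alternatives. The third probe (A_11_P212613) did not pass the filter in either population and was well above background on 5 of 10 arrays in co-cultured macrophages, on both arrays of a pair with P114 alone (log2 level 7.67).

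In the cancer cells ABCC5 did not pass the test, and its measured ratio varied between lines. In mono-culture its level was 11.17 in CMT-W1, 10.62 in P114, 9.88 in CMT-U309, 9.63 in CMT-W2 and 7.64 in CMT-U27. The arrays of CMT-U309 differed by 1.12, so CMT-U309 was not separated from P114 or CMT-W2 beyond the spread between dyes, while CMT-U27 lay below all other lines. In co-culture the level was 13.36 in P114, 12.24 in CMT-W2, 11.52 in CMT-W1, 10.16 in CMT-U309 and 6.11 in CMT-U27. The log2 ratios were 2.75 in P114 and 2.61 in CMT-W2, near 0 in CMT-W1 (0.35) and CMT-U309 (0.29), and -1.54 in CMT-U27. Only 1 of the 2 co-culture arrays of CMT-U27 measured it well above background, and with normexp and loess these arrays gave -0.31 and -0.20. The mean of the 5 ratios was 0.89 ± 1.80 (SD, n = 5, adjusted p = 0.355, limma over 28648 probes), and 1.50 ± 1.36 without CMT-U27 (n = 4, adjusted p = 0.144, between 0.144 and 0.999 over 18 alternatives, limma). The second probe gave 3.60 in P114 and 3.28 in CMT-W2, and it was not well above background on any CMT-U27 array in either culture (mean of all lines 1.67 ± 1.76, SD, n = 5, adjusted p = 0.109, limma). With the slide as a random block that mean was 1.73 and its adjusted p was 0.0242, and over 16 alternatives it ran from 0.0242 to 0.930.

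**Figure D2:**
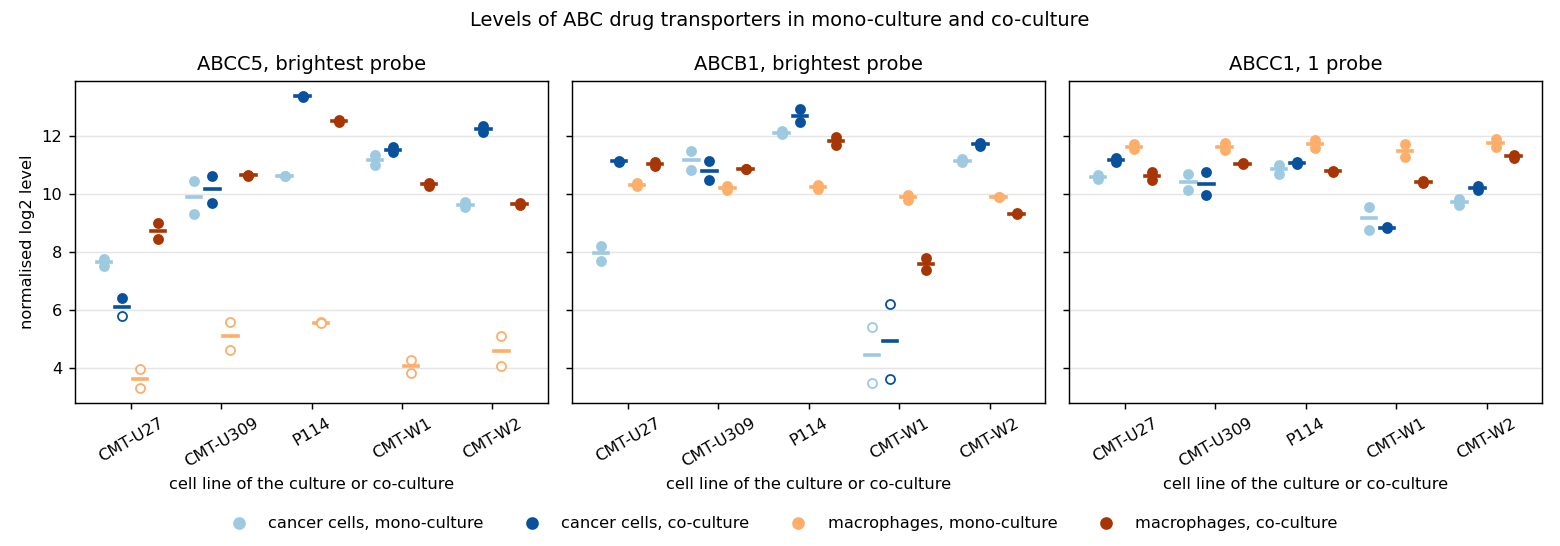
Normalised log2 level of the brightest probe of ABCC5 and ABCB1 and of the single probe of ABCC1, by cell line of the culture or co-culture. Each point is 1 array, lines are means of both dyes, and open points were not well above background. Mono-cultured macrophages are open for ABCC5 in all 5 pairings, and CMT-W1 is open for ABCB1 in both cultures.

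ABCB1 was expressed in mono-cultured macrophages at nearly the same level in every pair, and its level after co-culture varied with the pairing. For the brightest probe (A_11_P050841) the mono-culture level of macrophages was 9.88 to 10.31, while the co-culture level was 11.83 with P114, 11.02 with CMT-U27, 10.86 with CMT-U309, 9.31 with CMT-W2 and 7.59 with CMT-W1. The macrophages grown with CMT-W1 and CMT-W2 lay below, and those grown with P114, CMT-U27 and CMT-U309 above, all mono-cultures. The log2 ratios were 1.59 (P114), 0.71 (CMT-U27), 0.67 (CMT-U309), -0.58 (CMT-W2) and -2.29 (CMT-W1), and the dye orientations of a pair differed by at most 0.23. The mean was 0.02 ± 1.50 (SD, n = 5, adjusted p = 0.976, limma) and changed sign in 6 of 19 alternatives.

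The second ABCB1 probe (A_11_P0000019933) gave lower ratios in the macrophages in the same ends of the order, 0.49 with P114 and -3.21 with CMT-W1. With CMT-U27 (-0.28) and CMT-U309 (-0.79) its ratio was negative, opposite in sign to the brightest probe, and with CMT-W2 it was -1.72. Its level in co-culture ranged from 5.18 to 9.18, against 8.40 to 8.76 in mono-culture. Its mean was -1.10 ± 1.43 (SD, n = 5, lower in 4 of 5, adjusted p = 0.106, limma). It passed the threshold in 2 of 18 alternatives, with the slide as a random block (-1.15, adjusted p = 0.0400) and without P114 (-1.50, adjusted p = 0.0473). The lowest value rests partly on 1 array, since the dyes of the CMT-W1 pair differed by 3.16.

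Among the mono-cultured lines ABCB1 was highest in P114 (12.11), followed by CMT-U309 and CMT-W2, which did not differ (11.15 for both), then CMT-U27 (7.96). In CMT-W1 neither probe was well above background on any array, in mono-culture or in co-culture (measured levels 4.46 and 4.93 for the brightest probe). In co-culture CMT-U27 reached 11.12, beside 12.70 in P114, 11.70 in CMT-W2 and 10.80 in CMT-U309. The log2 ratio of CMT-U27 was 3.16 (8.92-fold), and those of the other lines lay between -0.35 and 0.59. The second probe was not well above background in mono-cultured CMT-U27 and rose there at least 4.58-fold on processed signals, with the limit used for ABCC5. With normexp and loess its CMT-U27 arrays gave log2 ratios of 0.75 and 0.58. For the brightest probe the mean over the lines was 0.87 ± 1.33 (SD, n = 5, adjusted p = 0.248, limma), and it was 0.30 ± 0.44 without CMT-U27 (n = 4, adjusted p = 0.517; 0.126 to 0.999 over 18 alternatives). For the second probe the mean of 0.56 ± 1.39 (SD, n = 5, adjusted p = 0.467, limma) became -0.03 ± 0.50 without CMT-U27 (n = 4, adjusted p = 0.956, limma; 0.329 to 0.999 over 17 alternatives). Co-cultured CMT-U27 cells were also those with the highest macrophage marker sum, 513000 against 16900 to 92200 in the other lines. For the brightest probe ABCB1 in mono-cultured macrophages of that pairing was at 10.31, below the 11.12 of the co-cultured CMT-U27 cells. For the second probe it was at 8.65 in these macrophages, above the 8.24 of the co-cultured CMT-U27 cells. Whether macrophage RNA contributed to the CMT-U27 value was not tested.

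ABCC1 fell in the macrophages. Its probe (A_11_P0000019697) was well above background in every channel of all 20 arrays, and mono-cultured macrophages were at 11.49 to 11.74. In co-culture their level was 11.29 with CMT-W2, 11.05 with CMT-U309, 10.77 with P114, 10.62 with CMT-U27 and 10.42 with CMT-W1. Every co-culture pair mean lay below every mono-culture pair mean, but single arrays overlapped (11.33 in co-culture with CMT-W2, 11.26 in the mono-culture paired with CMT-W1). Of all probes tested in the macrophages, 25.9% were called lower. The log2 ratio was -0.81 ± 0.28 (SD, n = 5, lower in 5 of 5, adjusted p = 0.0185, limma), a 1.76-fold decrease. The call was lost without CMT-U27 (-0.76, adjusted p = 0.0631) and without P114 (-0.78, adjusted p = 0.0624), and over 19 alternatives the adjusted p ran from 0.00535 to 0.0631.

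In the cancer cells ABCC1 did not pass the test. Its mono-culture level was 10.85 in P114, 10.58 in CMT-U27, 10.40 in CMT-U309, 9.73 in CMT-W2 and 9.16 in CMT-W1, and in co-culture CMT-W1 was again lowest (8.84). P114, CMT-U27 and CMT-U309 were not separated in mono-culture, since the arrays of CMT-U309 differed by 0.54. The log2 ratios ran from -0.32 in CMT-W1 to 0.57 in CMT-U27, with a mean of 0.18 ± 0.37 (SD, n = 5, adjusted p = 0.617, limma).

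**Figure D3:**
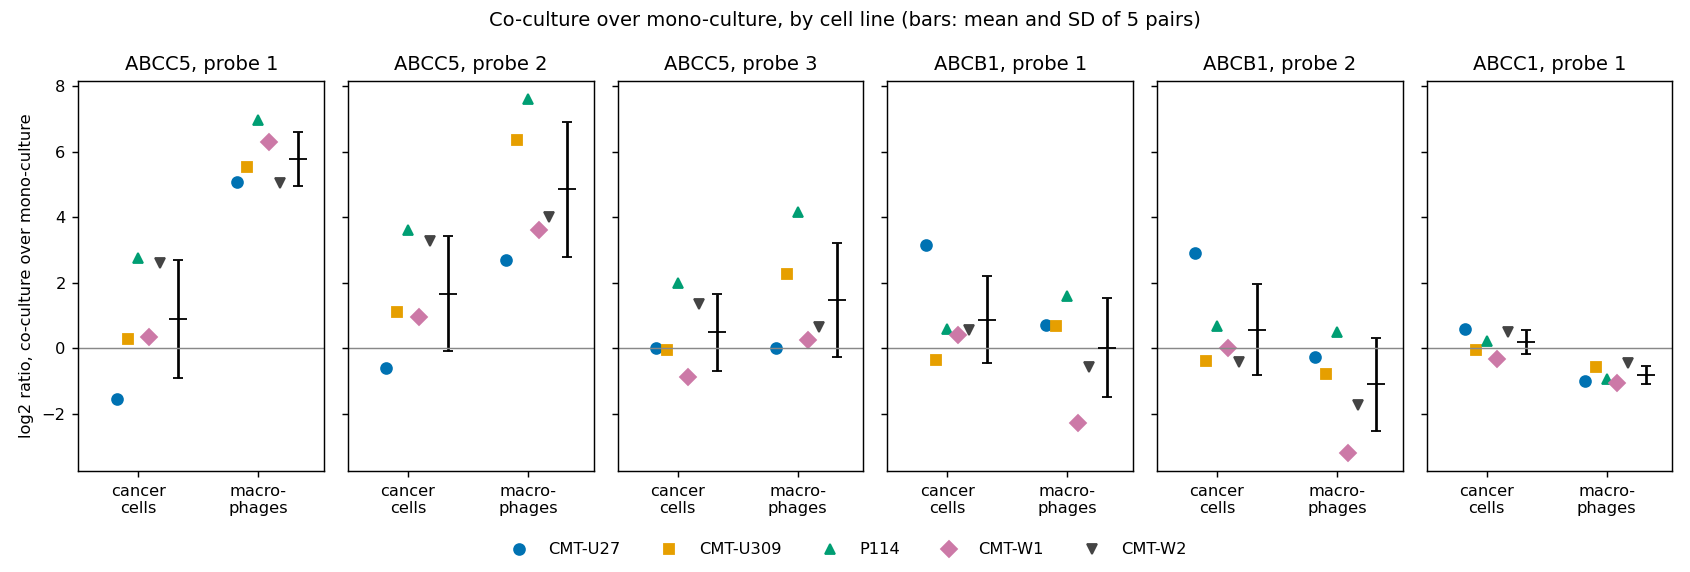
Log2 ratio of each co-culture to its mono-culture for the 6 probes, in cancer cells and macrophages. Each point is the mean of a dye-swap pair, marked by cell line, and the bar gives the mean and SD of 5 pairs. All ABCC5 points of the first and second probe are above 0 in the macrophages, all ABCC1 points are below 0 there, and CMT-U27 stands apart for ABCB1 in the cancer cells.

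Of the 6 probes, 5 could be tested in each population. In the macrophages 2 were called higher (both ABCC5, which passed the filter through the co-culture alone, so nothing is read from this count) and 1 lower (ABCC1), where 20.9% of the 30090 probes tested were called higher and 25.9% lower, with a median log2 ratio of -0.14 over all of them. In the cancer cells 0 of 5 were called, with 1 at an unadjusted p under 0.05, against 6.28% higher and 5.84% lower of 28648 probes (median -0.01).

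Whether a change differed between the populations was tested directly. Of 27933 probes 15.3% had a higher and 16.3% a lower ratio in the macrophages. The ABCC5 ratio was 4.88 higher in the macrophages than in the cancer cells for the brightest probe (SE 0.76, adjusted p = 6.29e-04) and 3.18 higher for the second (SE 1.02, adjusted p = 0.0327, limma). Both differences rest on the macrophage ratios against a mono-culture not well above background, and neither could be tested with both cultures required to be well above it. The ABCC1 ratio was lower in the macrophages (difference -0.99, SE 0.29, adjusted p = 0.0212), and for ABCB1 the differences were -0.85 (SE 0.77, adjusted p = 0.433) and -1.66 (SE 0.76, adjusted p = 0.121). With the cell line as a block the second ABCB1 probe passed the threshold (-1.66, adjusted p = 0.0492; 0.0492 to 0.954 over 17 alternatives).

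Slide and population were largely confounded, since only 1 slide held both. On that slide the ABCC5 ratio of the brightest probe was 5.07 in macrophages grown with CMT-U27 and 0.35 in CMT-W1 cells, a difference of 4.72 that has no replicate. With the slide as a fixed block the difference rests on this slide, and ABCC5 (adjusted p = 0.333) and ABCC1 (-0.69, adjusted p = 0.702) were not called. With this block 0 probes were called in limma, and 3827 had an unadjusted p under 0.05. On the scan day that held both populations the macrophage array pair of CMT-U27 exceeded the mean of the 5 cancer lines by 4.18 for ABCC5, and with the scan day as a block that value had an adjusted p of 0.0833. For ABCC1 this difference was -1.19 (adjusted p = 0.184 with the block), and it was 1.01 for the second ABCC5 probe. With normexp and loess the ABCC5 difference was 1.13 (adjusted p = 0.199) for the brightest probe and 0.21 (adjusted p = 0.809) for the second. The second ABCC5 probe also lost its call without CMT-U309 (2.67, adjusted p = 0.12), without CMT-W1 (3.32, adjusted p = 0.0698) and with no filter on dim probes (3.18, adjusted p = 0.0650). The adjusted p of the brightest ABCC5 probe ran from 1.51e-04 to 0.333 over 17 alternatives, that of the second from 0.00662 to 0.809 over 16, and that of ABCC1 from 0.00271 to 0.702 over 18. The ABCC1 call was also lost without CMT-U27 (-0.84, adjusted p = 0.0967), without P114 (-0.95, adjusted p = 0.0933) or without CMT-W2 (-1.01, adjusted p = 0.0631).

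The levels of both populations were also set side by side. In mono-culture ABCC5 was higher in the cancer cells than in the macrophages, by at least 16.6-fold on processed signals for the brightest probe (mean log2 levels 9.79 ± 1.34 and 4.60 ± 0.78, SD, n = 5 each, adjusted p = 8.61e-05, limma). The probe passed the filter through the cancer cells alone. With normexp, loess and Aquantile the difference of macrophages minus cancer cells was -1.69 on the log2 scale. ABCC1 was higher in the macrophages by 1.50 (11.64 ± 0.10 against 10.14 ± 0.69, SD, n = 5 each, adjusted p = 0.00601, limma). The 5 macrophage values may come from the same mono-culture, so the p-values of these levels may leave out part of the spread. ABCB1 levels of macrophages (10.10 ± 0.20) lay within the range of the lines (4.46 to 12.11), with a difference of 0.74 (adjusted p = 0.669, limma). Here 1 of 4 tested probes was called higher (ABCC1) and 1 lower (ABCC5), beside the 20.6% and 14.7% given above. The ABCC5 probe passed the filter through the cancer cells alone, so nothing is read from that call.

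In co-culture 0 of 5 transporter probes were called, none of them with an unadjusted p under 0.05. The mean difference of macrophages minus cancer cells was -0.31 for ABCC5 (SE 1.21), -0.13 for ABCB1 (SE 1.34) and 0.51 for ABCC1 (SE 0.47), each with an adjusted p of 1.00 (limma). Within a pairing the ABCC5 level of macrophages minus that of cancer cells was 2.60 with CMT-U27, 0.47 with CMT-U309, -0.84 with P114, -1.18 with CMT-W1 and -2.59 with CMT-W2. For ABCB1 these differences were -0.10, 0.07, -0.87, 2.66 and -2.39 in the same order of lines. Differences of either sign thus stood behind the mean for both genes.

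Some extremes of the order were shared between the populations. ABCC5 was highest with P114 and lowest with CMT-U27 in both co-cultured populations. CMT-U27, well above background on 1 of 2 co-culture arrays, was also the lowest line in mono-culture. The highest line in mono-culture was CMT-W1 (11.17), above P114 (10.62). ABCB1 was highest with P114 and lowest with CMT-W1 in both co-cultured populations, and these were the highest and lowest lines in mono-culture. ABCC1 was lowest with CMT-W1 in both populations, while its highest levels were in CMT-U27 cells and in macrophages grown with CMT-W2. With 5 pairings no correlation is given, and whether cancer cell RNA contributed to the macrophage values was not tested.

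**Figure D4:**
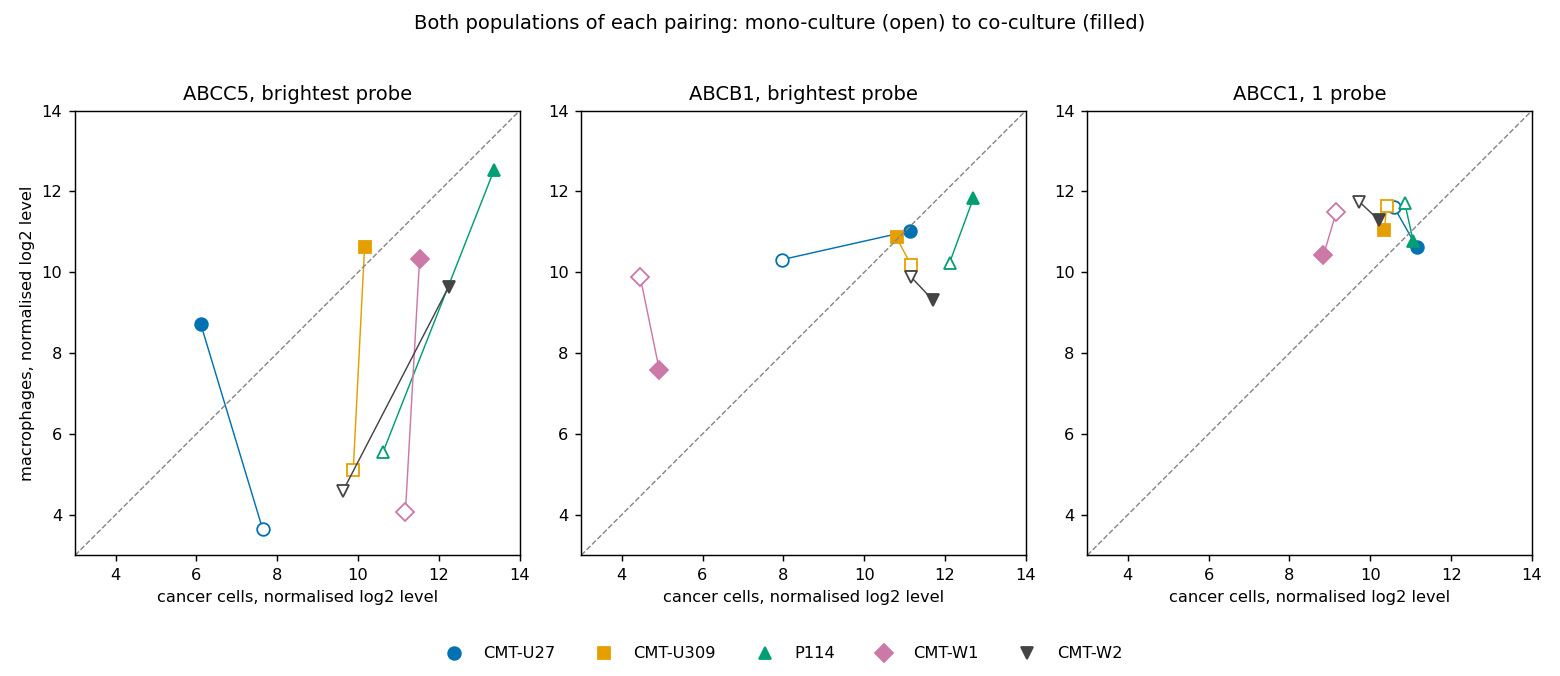
Normalised log2 level in macrophages against that in cancer cells for each pairing, from mono-culture (open) to co-culture (filled), with the dashed line marking equal levels. For ABCC5 all 5 pairings move up towards or across the line, from macrophage levels of 3.64 to 5.56 to levels of 8.71 to 12.52. For ABCB1 the P114 and CMT-W1 pairings are the highest and the lowest after co-culture.

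Genes with the pattern most like that of each transporter were named from the Pearson correlation of 20 mean log2 levels, with 667 other genes as candidates. The levels share arrays and cell lines, so the correlations are a description. For ABCC5 the 5 genes were ANXA2 (0.93), SLC35A1 (0.90), SNAP91 (0.90), HMGA1 (0.89) and MYC (0.89). ANXA2 encodes a membrane-binding annexin and HMGA1 a chromatin protein, and MYC encodes a transcription factor of cell growth. For ABCB1 they were PGRMC1 (0.93), OSTC (0.90), ZNF331 (0.88), AP3B1 (0.87) and MT2A (0.87), the last of which encodes a metallothionein. For ABCC1 they were the lysosomal sulfatase gene ARSA (0.94), the caspase gene CASP9 (0.92), SPCS2 (0.92), OAS3 (0.91) and the lysosomal fucosidase gene FUCA1 (0.90). Over the 10 log2 ratios instead of the levels, 2 of the 5 genes for ABCC5, 2 for ABCB1 and 0 for ABCC1 were again among the 5 most alike.

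Other genes of drug transport and metabolism were covered only in part. Of all probes tested, 20.9% were called higher and 25.9% lower in the macrophages, and 6.28% and 5.84% in the cancer cells. The lists below hold few tested genes, so nothing is read from their counts beside these shares. Of 40 other ABC transporters listed, 5 had a probe, and of the 2 that could be tested in macrophages both fell, ABCA4 (-1.33 ± 0.20, SD, n = 5, adjusted p = 0.00221), a retinoid transporter, and ABCC4 (-0.68 ± 0.24, SD, n = 5, adjusted p = 0.0323, limma), which like ABCC5 exports cyclic nucleotides. Their median was -1.01, beside -0.14 over all probes. In the cancer cells 0 of 3 were called, with a median of -0.72 (0 had an adjusted p under 0.05 in limma, and ABCA4 had the smallest, 0.126).

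Of the drug uptake carriers 4 of 23 had a probe. In macrophages 0 rose and 2 of 4 fell, the organic anion carrier gene SLCO1B3 (-1.01 ± 0.31, SD, n = 5, adjusted p = 0.00872) and the peptide carrier gene SLC15A1 (-1.91 ± 1.57, SD, n = 5, adjusted p = 0.0233, limma), and the median was -0.68. In cancer cells SLCO1B3 fell too (-1.92 ± 0.64, SD, n = 5, adjusted p = 0.0130, limma), as 1 of 3 tested (median -0.72). SLC29A1, which encodes the nucleoside carrier ENT1, was at 0.39 ± 0.63 in macrophages and -0.72 ± 0.75 in cancer cells (SD, n = 5) and was called in neither.

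Among genes of drug metabolism and conjugation, 15 of 37 had a probe and 11 could be tested in each population. In the macrophages TPMT, the thiopurine methyltransferase gene, rose (1.64 ± 0.38, SD, n = 5, adjusted p = 0.00153), and the cytochrome P450 genes CYP3A12 (-1.01 ± 0.38) and CYP1A2 (-0.88 ± 0.30, SD, n = 5 for both) fell, with adjusted p of 0.0106 and 0.0144 (limma). In the cancer cells none rose, and the carboxylesterase gene CES1 (-3.83 ± 1.70, SD, n = 3) and the sulfotransferase gene SULT1A1 (-1.48 ± 0.98, SD, n = 5) fell, with adjusted p of 0.0242 and 0.0426 (limma). The medians were -0.52 in macrophages and -0.23 in cancer cells.

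Of 18 xenobiotic and stress regulators 4 had a probe and 3 were tested. HMOX1, which encodes the haem-degrading enzyme of the oxidative stress response, fell in the macrophages by 4.01 on the log2 scale (SD 0.65, n = 5, adjusted p = 1.28e-04, limma), and the inflammatory transcription factor gene NFKB1 rose there (0.74 ± 0.50, SD, n = 5, adjusted p = 0.0464, limma). NFKB1 also rose in the cancer cells (1.33 ± 0.74, SD, n = 5, adjusted p = 0.0346, limma), while PPARG was called in neither population (0.98 ± 1.75 and -0.55 ± 0.98, SD, n = 5). The medians were 0.74 and 0.08.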

How the data were processed

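Each of the 20 arrays held co-culture RNA in one dye and mono-culture RNA in the other. The authors deposited the output of Agilent Feature Extraction (10.7.3.1), with linear intensity columns, flags for spots and a log10 ratio of Cy5 over Cy3 after background correction and dye normalization. Their deposited table of processed values equals that log10 ratio, turned to co-culture over mono-culture. A RefSeq gene table (UU_Cfam_GSD_1.0) gave symbols to 1648 of 43603 probes, and its coordinates were not used because the array was designed on a different assembly. No column was without a sample (0).

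Ratios were turned to co-culture over mono-culture on the log2 scale. Outlier-marked spots were dropped, 6 to 110 per array apart from 1438 on a CMT-W2 and 9870 on a CMT-U309 cancer cell array. A dye-swap pair was averaged and counted as 1 replicate. Probes well above background in either culture on both arrays of at least 3 of 5 pairs were tested with limma (3.58.1, R 4.3.3), with Benjamini-Hochberg adjustment over all probes tested at 0.05. Levels are log2 processed signals after Aquantile normalization, averaged over both dyes. Where several probes of a gene exist, each was tested on its own, and the brightest stands for the gene in lists. Co-culture channels were well above background for 51.0% to 96.3% of spots, no transporter probe was saturated (0), and the number of arrays limits the precision. The tests were checked on simulated data first. Files were read with Python 3.11.15 (pandas 2.3.3, numpy 2.4.6).

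The members and the lists (other ABC transporters, drug uptake carriers, drug metabolism and conjugation, xenobiotic and stress regulators, and markers of macrophages, epithelial and mammary cells, stromal and spindle cells, and lymphocytes) were chosen with earlier results of these data known. All member probes are named. From the lists up to 3 genes with the smallest p in each direction are named, apart from a result that is not reported here, and marker and uncalled genes beyond these were named after their values were seen. The populations sorted from a co-culture share its cell line and are paired by design. Deviations from the group means correlated across 27933 probes at 0.06 to 0.49 within a pairing and at -0.36 to 0.15 between pairings. Alternatives were other background correction, centring, filters, single dyes, the deposited table, blocks, the methods' t-test and leaving out each line. The scan day as a block was added after seeing the data.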

Additional observations from a re-analysis of the deposited data

Results flagged for a closer look

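The ABCB1 log2 ratio of CMT-U27 cancer cells (3.16, brightest probe) stood apart from the other lines, which lay between -0.35 and 0.59. The ABCB1 level of co-cultured CMT-W1 cells (4.93) stood apart from the 10.80 to 12.70 of the other lines, and was not well above background. Of 36 groups of 5 values examined, chance sets about 1 in 20 apart in this way.

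The change on co-culture differed between macrophages and cancer cells by 4.88 (log2) for the brightest ABCC5 probe, by 3.18 for the second ABCC5 probe and by -0.99 for ABCC1, by the test of the difference in limma. Both ABCC5 values rest on mono-cultured macrophages not well above background. Macrophage and stromal marker sums moved with the same comparison, and their part in these values was not tested.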

How the results depend on the processing

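Of 472 alternative values, 372 came from a test of 1 probe. Of these, 331 kept their sign and side of the threshold, 19 changed sign without being called, 18 lost the threshold, 4 newly passed it and 0 called values reversed. Of 79 counts of calls, 18 differed by more than 1.5 times, and of 21 values with no test (levels by line and shared like genes), 7 moved. With both cultures required to be well above background, ABCC5 gave no value in the macrophages or for the difference between populations. The count of changed probes in the cancer cells (3473) became 71 with normexp and loess, 1888 with no filter on dim probes, 2163 with the co-culture in Cy5 alone, 8474 with the slide as a random block, 8 in the methods' t-test (adjusted) and 595 to 2671 when each line was left out. The methods' t-test had 909 probes with an unadjusted p under 0.01 in the cancer cells and 10544 in the macrophages. With an adjusted p under 0.05 in place of that cut-off, 12675 passed in the macrophages. The authors gave both cut-offs together and also required a fold change on every slide, which was not applied here. The count of differences between populations (8821) was 0 with the slide as a fixed block, where few degrees of freedom are left, and 2164 with the scan day as a block. That in mono-culture (9670) ran from 6157 to 11381 with each line left out.

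For co-culture levels, where 1 probe was called, 2 were called with the cell line as a replicate block, 2 with normexp, 0 in the Cy3 channels alone and 0 to 1 with each line left out. ABCC1 in macrophages was -0.76 and not called on the first scan day alone (the same pairs as without CMT-U27), and was -0.90 to -0.75 with each line left out. The ABCC5 difference between populations was 1.13 with normexp, 4.72 with the slide and 4.18 with the scan day as a fixed block, and that of ABCC1 was -0.69 and -1.19 with these blocks and -1.11 to -0.84 with each line left out. Of these ABCC1 values, the call in macrophages was lost without CMT-U27 or P114, and that of the difference with either block and without CMT-U27, P114 or CMT-W2, and the 3 ABCC5 differences were not called. With the cell line as a replicate block 9511 differences were called, and apart from the second ABCB1 probe (-1.66) no call of a transporter changed. The causes of these changes were not tested. ABCC5 in mono-cultured macrophages was not well above background, which limits the size of its ratio.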
